A study of Mus musculus with 12 samples.

Results

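The 45 genes described here are the proteasome subunit genes and their closest namesakes, out of 53801 gene identifiers in the deposited count tables. They were chosen as the protein-coding genes whose GENCODE vM21 mouse symbol starts with Psma, Psmb, Psmc, Psmd or Psme followed by a digit. By role they comprise 7 alpha-ring genes and 7 constitutive beta-ring genes of the core particle, 3 immunoproteasome genes, 6 ATPases and 3 other subunits of the regulatory base, 8 lid subunits, 3 assembly chaperones with Psmd names and 5 activator genes. The other 3 are Psma8, a testis form of an alpha subunit, Psmb11, the thymus-specific beta subunit, and Psmc3ip, which the naming rule includes although it encodes a meiotic recombination factor and not a subunit.

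The proteasome degrades proteins that carry ubiquitin chains. Its core particle is a barrel in which alpha rings gate the entrance and beta rings hold the proteolytic sites, and a regulatory particle caps the barrel, with ATPases in its base that unfold substrates and a deubiquitinase in its lid. Interferon exchanges the catalytic beta subunits for immunoproteasome forms that favour antigenic peptides, and the Psme activators open the barrel without ubiquitin recognition. Under endoplasmic reticulum (ER) stress, misfolded proteins moved out of the ER are degraded by proteasomes, and muscle cells are known to raise proteasome genes during atrophy.

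The libraries were made from polyadenylated RNA of C2C12, a line of mouse myoblasts, in 4 groups of 3. These were Cebpg knockdown cells with thapsigargin, Cebpg knockdown cells with DMSO, control cells with thapsigargin and control cells with DMSO, each exposed for 6 h. Thapsigargin inhibits the SERCA calcium pump and causes ER stress, DMSO is its solvent, and Cebpg encodes C/EBP gamma, a partner of the stress factor ATF4. The sample titles give the knockdown as a single label, Sh2, and the labels do not say what control cells carried, so an off-target effect or another lasting difference between the cell populations cannot be told apart from the loss of Cebpg. The growth protocol names HeLa cells while the source and cell line fields name C2C12.

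Libraries held 29.4 to 47.7 M reads assigned to genes, and levels are given as CPM (counts per library size, scaled by edgeR's TMM factors), with fold changes on the log2 scale. Cebpg stood at 6.11, 5.58 and 5.29 CPM in knockdown thapsigargin libraries and at 211, 219 and 216 CPM in control thapsigargin libraries. In DMSO it stood at 4.62, 3.74 and 5.18 CPM in knockdown cells and at 51.7, 51.5 and 60.6 CPM in control cells, so the libraries follow their labels. All 5 myoblast markers were present in every group. Their summed level was 1476 to 1539 CPM in knockdown thapsigargin, 1471 to 1589 CPM in knockdown DMSO, 1636 to 1711 CPM in control thapsigargin and 2028 to 2234 CPM in control DMSO libraries. The sum joins opposite changes: Myf5 averaged 416 ± 36.7 and 73.6 ± 2.55 CPM in knockdown thapsigargin and knockdown DMSO libraries and 252 ± 7.17 and 61.8 ± 6.17 CPM in control thapsigargin and control DMSO libraries (SD, n = 3), while the 4 others were lower with thapsigargin in both populations. Summed epithelial markers were 6.29 to 7.39, 0.323 to 0.434, 2.54 to 3.06 and 0.143 to 0.291 CPM in these groups in that order, endothelial markers at most 3.11 CPM, leukocyte markers at most 8.58 CPM and germ cell markers at most 0.45 CPM. In the same order, group means of Krt8 were 2.76, 0.22, 1.03 and 0.116 CPM, and those of Krt18 were 3.92, 0.0907, 1.44 and 0 CPM. Those of Epcam were at most 0.0216 CPM and 0 in both control groups, and those of Cdh1 at most 0.282 CPM. Among leukocyte markers, Cd68 averaged 3.30, 5.60, 2.05 and 3.83 CPM and Csf1r 1.23, 1.40, 1.27 and 1.53 CPM. The group means of Ptprc were at most 0.263 CPM and 0 in control DMSO. The part of these shifts in the changes below was not tested. The labels do not state whether replicates are separate cultures, and the p-values therefore cover the spread between these libraries, which may be technical. In bulk RNA, fewer cells of a type and less RNA per cell cannot be told apart.

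Promoter sequence was available from RefSeq (GRCm38.p6) for 38 of the 45 genes, and the 250 bases before each start were searched on both strands for 5 short motifs. The antioxidant response element core TGACNNNGC, the kind of site that NRF1 and NRF2 bind, was present in 5 promoters, those of Psmb5, Psmb6, Psmc6, Psmd9 and Psmd12, or 13.2%, against 11.5% of all 27025 promoters searched and 13.8% of those of the tested genes. The C/EBP-ATF element TGATGNAA was present in 1, that of Psmd13, or 2.63%, against 3.91% of all and 2.63% of tested genes. The interferon-stimulated element core was found in 3 promoters, those of Psmb3, Psmd4 and Psmd9 (7.89%, against 3.46% of all and 3.16% of tested genes), and the CCAAT box in 15 (39.5%, against 37.5% and 40.3%). The ETS core CCGGAA was in 16 promoters (42.1%, against 13.6% of all and 23.9% of tested genes). A match of letters is not evidence of binding.

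The 5 windows with the antioxidant response element core are shown because Nfe2l1 (NRF1) RNA itself changed in these cells, and that of Psmd2 because it is the most abundant base gene by CPM and holds the ETS core at 2 places. All lie upstream of the RefSeq start and outside GENCODE vM21 exons, written 5′ to 3′ on the gene's strand with the matched letters of either strand in capitals. The Psmb5 window is chr14:54618023-54618095 on the minus strand, that of Psmb6 chr11:70525257-70525356 on the plus strand, and that of Psmd9 chr5:123228090-123228189 on the plus strand, within an intron of a longer Psmd9 transcript and of the noncoding gene Gm26745. The Psmc6 window is chr14:45329574-45329673 on the plus strand, that of Psmd12 chr11:107479278-107479377 on the plus strand and that of Psmd2 chr16:20651552-20651651 on the plus strand.
Psmb5: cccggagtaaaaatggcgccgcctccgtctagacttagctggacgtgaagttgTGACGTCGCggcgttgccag
Psmb6: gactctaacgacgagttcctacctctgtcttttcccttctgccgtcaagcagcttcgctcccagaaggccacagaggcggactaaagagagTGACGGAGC
Psmd9: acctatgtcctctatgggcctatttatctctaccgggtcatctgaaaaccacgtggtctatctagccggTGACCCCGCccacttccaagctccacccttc
Psmc6: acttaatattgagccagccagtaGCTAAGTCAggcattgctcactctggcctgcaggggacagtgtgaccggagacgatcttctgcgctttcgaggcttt
Psmd12: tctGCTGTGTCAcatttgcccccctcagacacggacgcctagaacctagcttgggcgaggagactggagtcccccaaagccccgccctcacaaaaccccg
Psmd2: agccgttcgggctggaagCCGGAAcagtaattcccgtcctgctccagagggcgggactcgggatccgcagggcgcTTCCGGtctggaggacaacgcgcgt

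To compare genes with each other, levels were set per exon length and scaled to the same total in every library (TPM). Over the 41 genes that passed the low-count filter, the mean of the 4 group means ran from 0.25 TPM in Psmb9 to 540.4 TPM in Psma6, with a median of 186.7 TPM. In the alpha ring, the extremes were Psma6 at 540.4 TPM and Psma2 at 114 TPM. Among constitutive beta genes Psmb4, a structural subunit, was highest at 417 TPM, and Psmb5, the chymotrypsin-like catalytic subunit, was lowest at 36.4 TPM, below Psmb7 at 97.7 TPM, the next gene up. A processed pseudogene, Psmb5-ps, held 0 reads and the microRNA gene Mir686, which shares 12.1% of the Psmb5 exon bases, also held 0. Reads counted for no gene because they were ambiguous (6.47% to 6.88% of a library) or not uniquely aligned (4.11% to 5.42%) could belong to such genes, and their part in the low Psmb5 level was not tested.

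Among base ATPases the order per length ran from Psmc5 at 503 TPM to Psmc2 at 133 TPM, and among other base genes from Psmd2, a scaffold and docking site for ubiquitin-carrying factors, at 410.4 TPM to Psmd1, the other large scaffold, at 128 TPM. In the lid, Psmd7 was highest at 318 TPM and Psmd11 lowest at 95.5 TPM. The activators were led by Psme3, the nuclear activator, at 285 TPM. Psme2 followed at 122 TPM, Psme1 at 64.9 TPM and Psme4 at 55.3 TPM. The assembly chaperones Psmd10, Psmd5 and Psmd9 averaged 52.3, 51.9 and 16.1 TPM. With the median coding transcript length in place of the exon union, an alternative chosen after seeing the data, Psmd8 stood above Psmd7, Psmd13 below Psmd11, Psmd5 above Psmd10 and Psmc6 and Psmc4 below Psmc2, while the highest and lowest genes of the alpha ring, the beta ring, the other base genes and the activators kept their places.

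The 4 members that did not pass the filter were Psma8, Psmb8, Psmb11 and Psme2b. Psma8 had 1 read in the 12 libraries together, and Psmb11 had 14 reads in knockdown thapsigargin, 1 in knockdown DMSO, 6 in control thapsigargin and 0 in control DMSO libraries. Psmb8, the immunoproteasome counterpart of Psmb5, had 19, 16, 22 and 28 reads in the same order, and Psme2b, a retrogene that resembles Psme2, had 3, 9, 1 and 6.

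Thapsigargin lowered most proteasome genes in both cell populations, and knockdown raised most of them. In knockdown cells, thapsigargin against DMSO gave 35 lower and 3 higher genes of the 41 tested, with a median log2 change of -0.33, and 92.7% were called in either direction. Calls are edgeR quasi-likelihood tests with Benjamini-Hochberg adjusted p under 0.05 over all 15828 genes tested, of which 34.4% were lower and 35.4% higher in this comparison, 69.8% in all. In control cells, 26 genes were lower and 5 higher, with a median of -0.26, against 37.0% lower and 37.7% higher over all genes (75.6% of members called in either direction, 74.7% of all genes). With knockdown, 33 genes were higher and 2 lower in DMSO, with a median of 0.28, against 25.0% higher and 26.5% lower over all genes (85.4% against 51.5% in either direction). Under thapsigargin the knockdown gave 26 higher and 6 lower genes, with a median of 0.15, against 28.5% higher and 28.4% lower (78.0% against 56.9% in either direction). The median change of all genes tested was within 0.02 of 0 in each comparison. With knockdown in DMSO, 1 gene was lower instead of 2 without knockdown DMSO replicate 1 or 2 or control DMSO replicate 2. With thapsigargin in knockdown cells, 1 was higher instead of 3 without knockdown DMSO replicate 3. Scaling by gene read totals alone moved the median of all genes to 0.12 with thapsigargin in knockdown cells and to 0.15 with knockdown under thapsigargin, and the member medians there to -0.21 and 0.28.

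**Figure D1:**
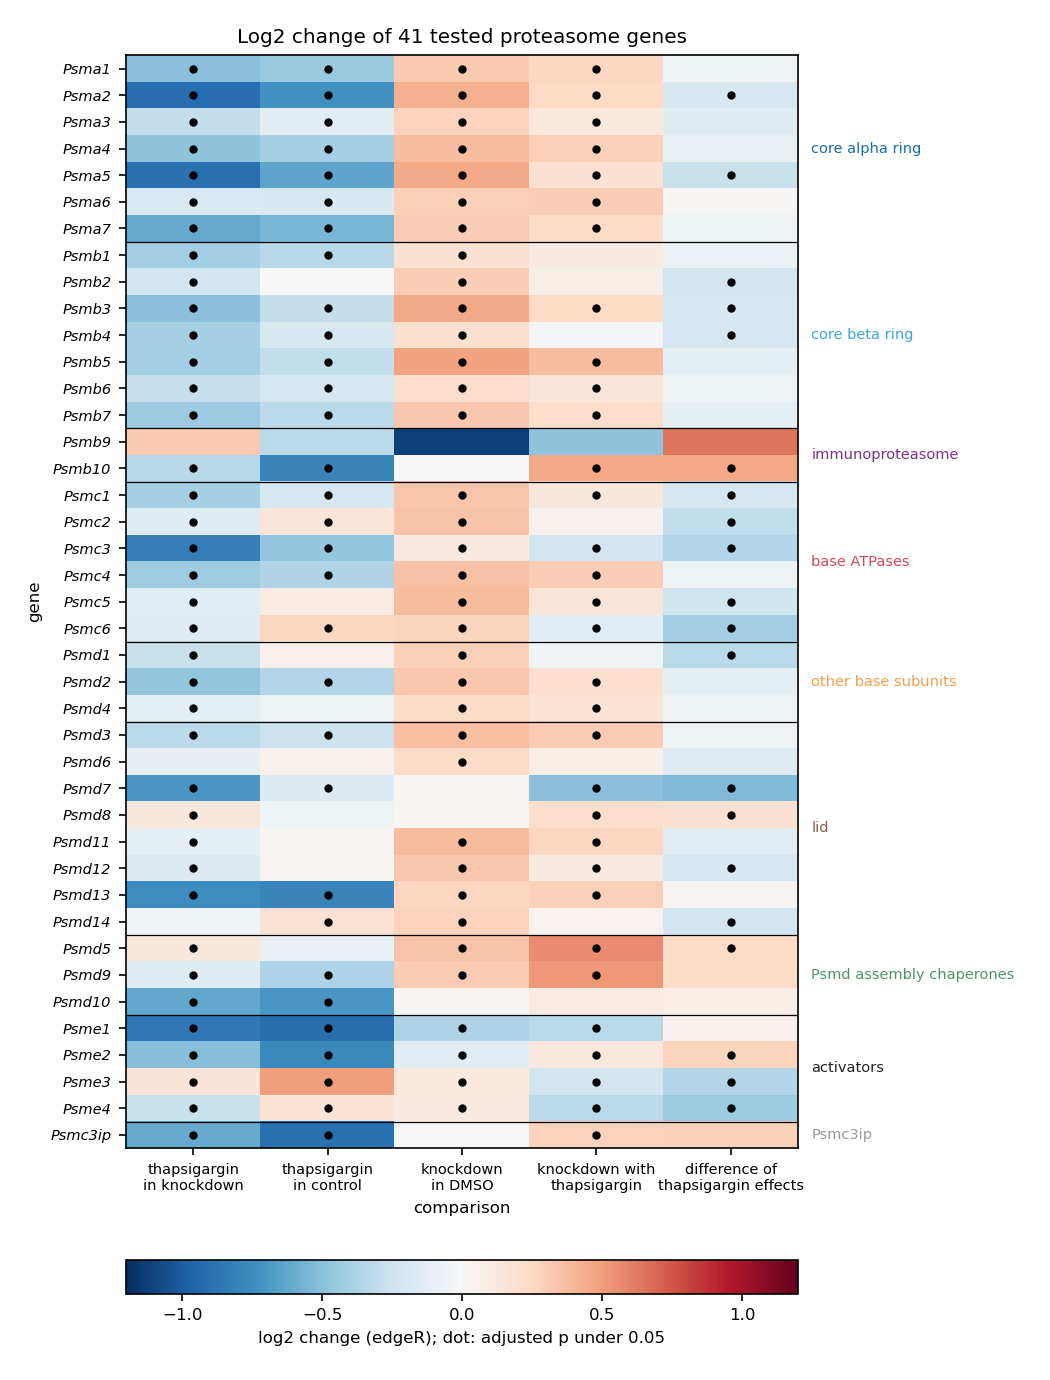
Log2 change of the 41 tested proteasome genes (rows, by subcomplex) in the 5 comparisons (columns), with a dot where the edgeR adjusted p was under 0.05. Alpha and constitutive beta genes are blue in both thapsigargin columns, except Psmb2 in control cells (0.00), and red for knockdown in DMSO, while Psme1 is blue in all but the difference column.

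All 26 genes that were lower with thapsigargin in control cells were also lower with it in knockdown cells. These comparisons share no library but come from the same fit. Over all genes, 37.0% were lower in control cells and 34.4% in knockdown cells, and the share lower in both was not counted. Psme3 was higher with thapsigargin in both populations. Psmc2, Psmc6 and Psme4 were higher with thapsigargin in control cells and lower with it in knockdown cells, and Psmd14 was higher in control cells while its change in knockdown cells did not pass. Knockdown raised 22 genes in both treatments, and the share of all genes that it raised in both was not counted. It raised Psmc3, Psmc6, Psme3 and Psme4 in DMSO and lowered them under thapsigargin, and it lowered Psme2 in DMSO and raised it under thapsigargin. Of these 10 calls, those of Psmc6 and Psme3 in DMSO and of Psmc3 and Psme4 under thapsigargin passed with every alternative run, and the others were lost under at least 1. For Psmc3 the DMSO groups overlapped. The DMSO call of Psmc3 was lost with gene read totals as the scaling, without the low-count filter or without control DMSO replicate 1 or 3 or knockdown DMSO replicate 1 or 2 (edgeR adjusted p between 0.0524 and 0.182).

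**Figure D2:**
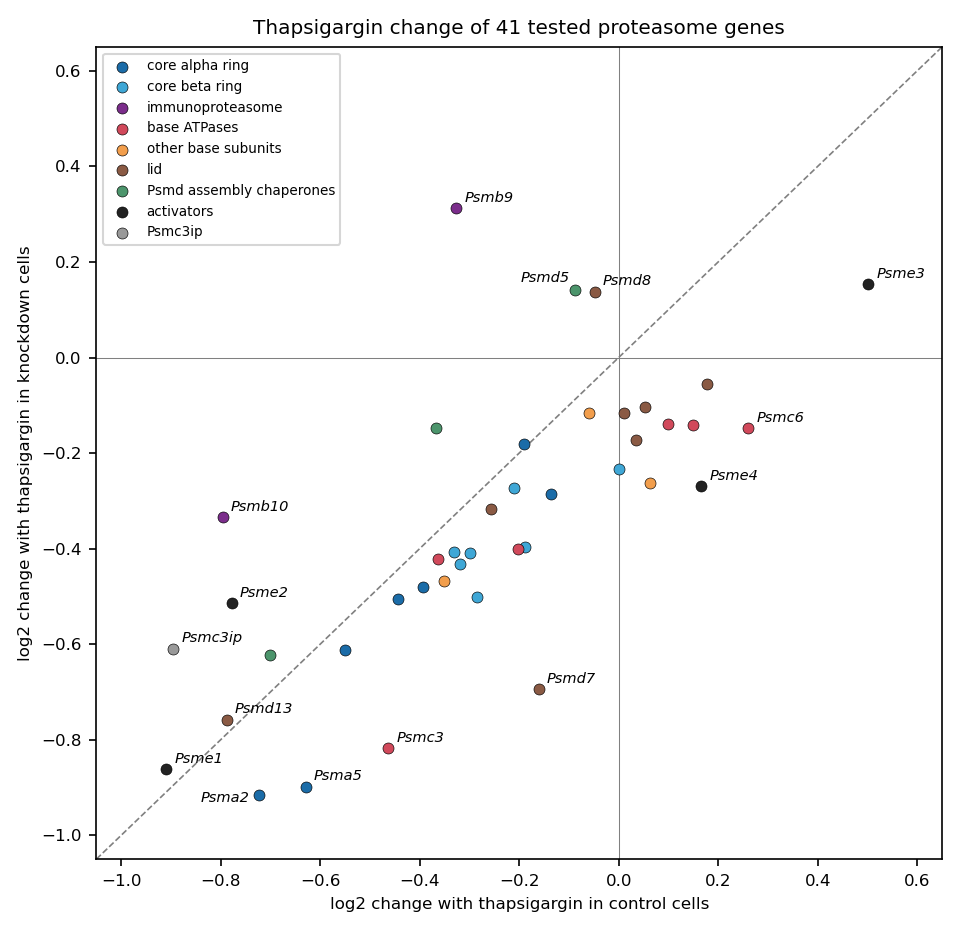
Log2 change with thapsigargin in knockdown cells (vertical axis) against that in control cells (horizontal axis) for the 41 tested proteasome genes, coloured by subcomplex, with a dashed line where both are equal. Most genes lie in the lower left, Psmc6 and Psme4 lie at the lower right, and Psme3 at the upper right.

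The alpha ring, whose 7 subunits form the outer gate of the core, moved together. All 7 genes were lower with thapsigargin in both populations and higher with knockdown in both treatments. Among all genes tested, 34.4% were lower with thapsigargin in knockdown cells and 37.0% in control cells. The shares higher with knockdown were 25.0% in DMSO and 28.5% under thapsigargin. Their summed level was 1015 ± 40.4 CPM in knockdown thapsigargin and 1460.0 ± 67.8 CPM in knockdown DMSO libraries (mean ± SD, n = 3). In control cells it was 867 ± 52.7 CPM with thapsigargin and 1152 ± 31.3 CPM in DMSO. Median log2 changes were -0.51 and -0.44 with thapsigargin in knockdown and control cells, and 0.32 and 0.23 with knockdown in DMSO and under thapsigargin. The call of Psma3 with thapsigargin in control cells, at -0.14, did not pass with RLE scaling, in DESeq2 or without control DMSO replicate 2 or control thapsigargin replicate 3 (edgeR or DESeq2 adjusted p between 0.0563 and 0.173). With knockdown under thapsigargin, its call was lost in DESeq2 or without control thapsigargin replicate 3 or knockdown thapsigargin replicate 2 (edgeR or DESeq2 adjusted p between 0.0507 and 0.293).

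Psma5 (ENSMUSG00000068749, chromosome 3, 108256926 to 108279974, GRCm38), an alpha subunit, had 126, 132 and 121 CPM in knockdown thapsigargin libraries, against 241, 244 and 219.9 CPM in knockdown DMSO libraries. In control cells it had 121, 115 and 98.2 CPM with thapsigargin and 178, 175 and 163 CPM in DMSO. The treatments did not overlap in either population, and the fall was -0.90 in knockdown cells (SE 0.06, edgeR adjusted p = 1.73e-13) and -0.63 in control cells (SE 0.06, edgeR adjusted p = 2.09e-10). Knockdown raised it by 0.45 in DMSO (SE 0.06, edgeR adjusted p = 2.4e-07) and by 0.18 under thapsigargin (SE 0.06, edgeR adjusted p = 0.0101). The last of these did not pass without control thapsigargin replicate 3 or knockdown thapsigargin replicate 2 (edgeR adjusted p between 0.0636 and 0.121).

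Psma2 (ENSMUSG00000015671, chromosome 13, 14613240 to 14674236), the least abundant alpha gene per length, had 91.6, 101 and 93.0 CPM in knockdown thapsigargin libraries and 187, 181 and 172 CPM in knockdown DMSO libraries. Control cells had 82.9, 86.7 and 72.7 CPM with thapsigargin and 136, 134 and 131 CPM in DMSO. Its fall with thapsigargin was the steepest of the 41 genes in knockdown cells, at -0.92 (SE 0.05, edgeR adjusted p = 4.15e-16), and reached -0.72 in control cells. Psma6, the most abundant member per length, changed least among the alpha genes in knockdown cells. It had 188, 205 and 202 CPM in knockdown thapsigargin against 225, 234 and 216 CPM in knockdown DMSO libraries, and 169.9, 164 and 151 CPM in control thapsigargin against 186, 185 and 183 CPM in control DMSO libraries. Every thapsigargin library of Psma6 was below every DMSO library of the same population (log2 change -0.18, SE 0.05, edgeR adjusted p = 0.000968 in knockdown cells). This call ended with gene read totals as the scaling (edgeR adjusted p = 0.234). Knockdown raised it by 0.28 in DMSO and 0.30 under thapsigargin. The 4 other alpha genes, Psma1, Psma3, Psma4 and Psma7, fell by between 0.55 and 0.14 on the log2 scale with thapsigargin in control cells.

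The constitutive beta ring carries the catalytic sites. With knockdown in DMSO all 7 of its genes were higher, and under thapsigargin 4 were higher and 3 did not pass. Thapsigargin lowered 7 of 7 in knockdown cells and 6 of 7 in control cells, where Psmb2 had a log2 change of 0.00 (edgeR adjusted p = 0.998). Among all genes tested, knockdown raised 25.0% in DMSO and 28.5% under thapsigargin. The shares that thapsigargin lowered were 34.4% in knockdown cells and 37.0% in control cells. Summed beta-ring levels were 880.3 ± 22.0 CPM in knockdown thapsigargin and 1150.0 ± 62.9 CPM in knockdown DMSO libraries, and 814 ± 49.3 CPM in control thapsigargin and 959.7 ± 44.8 CPM in control DMSO libraries (mean ± SD, n = 3). With knockdown under thapsigargin, Psmb6 did not pass without control thapsigargin replicate 3 or knockdown thapsigargin replicate 3 (edgeR adjusted p between 0.0515 and 0.0622). Psmb7 did not pass without control thapsigargin replicate 3 (edgeR adjusted p = 0.054).

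Psmb5 (ENSMUSG00000022193, chromosome 14, 54614119 to 54618022), the subunit that proteasome-inhibiting drugs such as bortezomib bind, was low throughout. It had 9.11, 10.1 and 8.96 CPM in knockdown thapsigargin libraries, against 12.3, 14.3 and 10.7 CPM in knockdown DMSO libraries. In control cells it had 8.59, 7.93 and 5.23 CPM with thapsigargin and 8.50, 8.76 and 9.48 CPM in DMSO, and these 2 groups overlapped. Knockdown raised Psmb5 by 0.48 in DMSO (SE 0.13, edgeR adjusted p = 0.00283), the largest of the 33 rises, and by 0.37 under thapsigargin (SE 0.13, edgeR adjusted p = 0.0212). The call under thapsigargin was lost without control thapsigargin replicate 3 or knockdown thapsigargin replicate 2 (edgeR adjusted p between 0.0894 and 0.175). Thapsigargin lowered it by 0.41 in knockdown cells (edgeR adjusted p = 0.0064). In control cells the change was -0.30 (SE 0.13, edgeR adjusted p = 0.0469). That call did not pass with RLE scaling, in DESeq2, in a fit of the 2 groups alone or without control DMSO replicate 1, 2 or 3, control thapsigargin replicate 3, knockdown DMSO replicate 1 or knockdown thapsigargin replicate 1, 2 or 3 (edgeR or DESeq2 adjusted p between 0.0504 and 0.355).

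Psmb3, a structural beta subunit, had 137, 143 and 141 CPM in knockdown thapsigargin and 199.8, 212 and 183 CPM in knockdown DMSO libraries. Control libraries had 124, 122 and 110.2 CPM with thapsigargin and 145, 151 and 138 CPM in DMSO. All knockdown DMSO libraries were above all control DMSO libraries (log2 change 0.46, SE 0.05, edgeR adjusted p = 7.47e-09). Psmb4, also structural, had 202, 222 and 207 CPM in knockdown thapsigargin and 282, 295 and 254 CPM in knockdown DMSO libraries, and 219.9, 219 and 199 CPM in control thapsigargin and 244, 253 and 229 CPM in control DMSO libraries. With knockdown it was higher in DMSO (log2 change 0.19, SE 0.05, edgeR adjusted p = 0.00293) and overlapped the control libraries under thapsigargin, where the change of -0.01 did not pass (edgeR adjusted p = 0.832). With gene read totals as the scaling that change was 0.12 (edgeR adjusted p = 0.045).

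Immunoproteasome subunits were scarce. Psmb10 (ENSMUSG00000031897, chromosome 8, 105935735 to 105938444), the counterpart of Psmb7, was the only one above 1 CPM. It had 12.6, 11.3 and 10.5 CPM in knockdown thapsigargin libraries and 15.3, 14.2 and 13.8 CPM in knockdown DMSO libraries, against 7.91, 9.52 and 7.36 CPM in control thapsigargin libraries and 14.8, 15.0 and 13.6 CPM in control DMSO libraries. The DMSO groups overlapped and the thapsigargin groups did not, with every knockdown library above every control library. Thapsigargin lowered Psmb10 by 0.33 in knockdown cells (SE 0.09, edgeR adjusted p = 0.0017) and by 0.80 in control cells (SE 0.09, edgeR adjusted p = 2.96e-09). With knockdown its log2 change was 0.00 in DMSO (edgeR adjusted p = 0.994), and under thapsigargin it rose by 0.46 (SE 0.10, edgeR adjusted p = 0.000111).

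Per exon length, Psmb10 stood at 25.5% ± 3.02 of Psmb7 in knockdown thapsigargin, 23.8% ± 0.662 in knockdown DMSO, 21.4% ± 2.20 in control thapsigargin and 29.8% ± 1.32 in control DMSO libraries (mean ± SD, n = 3). Psmb7 shares 11.8% of its exon bases with Nek6 on the other strand, whose group means were 49.4, 51.2, 53.2 and 71.4 CPM in these groups in that order, and its part in the ratio was not tested. Psmb8 was at most 0.805% ± 0.131 of Psmb5, in control DMSO libraries, and Psmb9 at most 0.127% ± 0.0446 of Psmb6, also there. Psmb9 had 21, 17, 34 and 39 reads in knockdown thapsigargin, knockdown DMSO, control thapsigargin and control DMSO libraries, and its library values ran from 0.0884 to 0.462 CPM. Its change with knockdown in DMSO was -1.12 (SE 0.51, edgeR adjusted p = 0.0657), which did not pass. It passed without control DMSO replicate 1 or knockdown DMSO replicate 3 (edgeR adjusted p between 0.0216 and 0.0408). Psmb9 shares 5.8% of its exon bases with Tap1 on the other strand and Psmb8 shares 14.7% with Gm20496, and whether counting used strand is not stated, so both are uncertain. The immunoproteasome genes Psmb8 and Psmb9 lie on chromosome 17 beside Tap1.

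The base of the regulatory particle holds the ATPases that unfold substrates. With knockdown in DMSO all 6 ATPase genes were higher, Psmc3 between groups that overlapped (log2 change 0.12, SE 0.05, edgeR adjusted p = 0.0263) and with a call that 6 of 18 alternatives ended, and with thapsigargin in knockdown cells all 6 were lower. In control cells, thapsigargin left them split, with 3 lower, 2 higher and 1 that did not pass. Under thapsigargin, knockdown gave 3 higher and 2 lower ATPase genes. Of all genes tested, thapsigargin lowered 34.4% and raised 35.4% in knockdown cells, and lowered 37.0% and raised 37.7% in control cells. Knockdown raised 25.0% and lowered 26.5% of all genes in DMSO, and raised 28.5% and lowered 28.4% under thapsigargin. Summed ATPase levels were 1133 ± 48.6 CPM in knockdown thapsigargin and 1434 ± 65.9 CPM in knockdown DMSO libraries, and 1117 ± 31.9 CPM in control thapsigargin and 1175 ± 28.6 CPM in control DMSO libraries (mean ± SD, n = 3).

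Psmc6 (ENSMUSG00000021832, chromosome 14, 45329788 to 45349705) was called in opposite directions in the 2 populations. It had 226, 251 and 218 CPM in knockdown thapsigargin and 262, 254 and 253 CPM in knockdown DMSO libraries, against 260.2, 262 and 242 CPM in control thapsigargin and 213, 212 and 213 CPM in control DMSO libraries. Thapsigargin lowered it in knockdown cells (log2 change -0.15, SE 0.05, edgeR adjusted p = 0.006) and raised it in control cells (log2 change 0.26, SE 0.05, edgeR adjusted p = 8.7e-06). The knockdown-cell call was lost with gene read totals as the scaling or without knockdown thapsigargin replicate 3 (edgeR adjusted p between 0.0589 and 0.576). Knockdown raised it by 0.27 in DMSO (edgeR adjusted p = 1.21e-05), and under thapsigargin, where the groups overlapped, the change was -0.14 (edgeR adjusted p = 0.0125). That change did not pass with gene read totals as the scaling or without control thapsigargin replicate 1 or 2 or knockdown thapsigargin replicate 1 or 3 (edgeR adjusted p between 0.0521 and 0.928).

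Psmc5, the most abundant ATPase gene per length, had 197, 217 and 217 CPM in knockdown thapsigargin and 239, 239 and 217 CPM in knockdown DMSO libraries. Control libraries had 189.7, 196 and 185 CPM with thapsigargin and 179.7, 181 and 172 CPM in DMSO. Knockdown raised it in DMSO (log2 change 0.38, SE 0.05, edgeR adjusted p = 3.13e-08), with no overlap. Under thapsigargin the rise was 0.14 (edgeR adjusted p = 0.00967). It was lost without knockdown thapsigargin replicate 2 or 3 (edgeR adjusted p between 0.0537 and 0.0567). The change with thapsigargin in knockdown cells was -0.14 between groups that overlapped (edgeR adjusted p = 0.00942). It did not pass with gene read totals as the scaling or without knockdown thapsigargin replicate 1 (edgeR adjusted p between 0.0897 and 0.708). In control cells the change of 0.10 did not pass (edgeR adjusted p = 0.0571). It passed with RLE scaling, in DESeq2, with a replicate block, in a fit of the 2 groups alone or without control DMSO replicate 2 or control thapsigargin replicate 3 (edgeR or DESeq2 adjusted p between 0.0149 and 0.0452).

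Psmc2, the least abundant ATPase gene per length, had 189, 200.2 and 200.1 CPM in knockdown thapsigargin and 214, 233 and 203 CPM in knockdown DMSO libraries, against 192, 195 and 180.2 CPM in control thapsigargin and 171, 173 and 167 CPM in control DMSO libraries. Like Psmc6 it was lower with thapsigargin in knockdown cells (-0.14, edgeR adjusted p = 0.00909) and higher with it in control cells (0.15, edgeR adjusted p = 0.00546). The fall in knockdown cells was lost with gene read totals as the scaling or without knockdown DMSO replicate 2 or knockdown thapsigargin replicate 1 (edgeR adjusted p between 0.0521 and 0.691). Knockdown raised Psmc2 in DMSO by 0.35 (edgeR adjusted p = 2.39e-07), and under thapsigargin the groups overlapped (0.06, edgeR adjusted p = 0.33). That difference passed with gene read totals as the scaling (edgeR adjusted p = 0.00068). Of the other ATPases, Psmc3 fell furthest with thapsigargin, by 0.82 in knockdown cells and 0.46 in control cells. Psmc1 and Psmc4 were lower with thapsigargin in both populations and higher with knockdown in both treatments. For Psmc1 the rise under thapsigargin did not pass without knockdown thapsigargin replicate 2 (edgeR adjusted p = 0.0628).

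The other base subunits, Psmd1, Psmd2 and Psmd4, were all higher with knockdown in DMSO and all lower with thapsigargin in knockdown cells. The shares of all genes tested were 25.0% and 34.4% in these comparisons. Psmd2 had 445, 434 and 444 CPM in knockdown thapsigargin and 608, 611 and 612 CPM in knockdown DMSO libraries, against 378, 402 and 367 CPM in control thapsigargin and 493, 506 and 465 CPM in control DMSO libraries. No pair of groups compared overlapped, with log2 changes of -0.47 and -0.35 with thapsigargin in knockdown and control cells and of 0.32 and 0.21 with knockdown in DMSO and under thapsigargin. The edgeR adjusted p of Psmd2 was at most 0.000127. Psmd1 had 265, 253 and 244 CPM in knockdown thapsigargin and 309.9, 300.1 and 305 CPM in knockdown DMSO libraries. In control cells it had 269, 270.3 and 244 CPM with thapsigargin and 242, 261 and 247 CPM in DMSO, which overlapped (log2 change 0.06, SE 0.05, edgeR adjusted p = 0.214). That comparison passed without control thapsigargin replicate 3 (edgeR adjusted p = 0.037). In knockdown cells thapsigargin lowered Psmd1 (log2 change -0.26, SE 0.05, edgeR adjusted p = 6.71e-06). Psmd4, a ubiquitin receptor, had a log2 change of -0.12 with thapsigargin in knockdown cells (edgeR adjusted p = 0.0261). Its call was lost with RLE scaling, with gene read totals as the scaling, in DESeq2, in a fit of the 2 groups alone or without knockdown DMSO replicate 2 or knockdown thapsigargin replicate 1 (edgeR or DESeq2 adjusted p between 0.0632 and 0.958).

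The 8 lid genes were less uniform. Knockdown in DMSO raised 6 of them, all but Psmd7 and Psmd8, whose changes did not pass, and under thapsigargin 5 were higher and 1 lower. Thapsigargin lowered 5 and raised 1 in knockdown cells and lowered 3 and raised 1 in control cells. Of all genes tested, thapsigargin lowered 34.4% and raised 35.4% in knockdown cells, and lowered 37.0% and raised 37.7% in control cells. The 3 of 8 lid genes lower in control cells were thus close to the all-gene share. Knockdown raised 25.0% and lowered 26.5% of all genes in DMSO, and raised 28.5% and lowered 28.4% under thapsigargin. The Psmd12 rise with knockdown under thapsigargin was lost without control thapsigargin replicate 1 or 3 or knockdown thapsigargin replicate 1 or 2 (edgeR adjusted p between 0.0548 and 0.0851). Its fall in knockdown cells was lost with gene read totals as the scaling (edgeR adjusted p = 0.249). Psmd7 (ENSMUSG00000039067, chromosome 8, 107580381 to 107588464), the partner of the deubiquitinase Psmd14, had 140.1, 157 and 149 CPM in knockdown thapsigargin libraries, against 239.9, 250.0 and 233 CPM in knockdown DMSO libraries. In control cells it had 206, 214 and 210.2 CPM with thapsigargin and 241, 236 and 227 CPM in DMSO. The knockdown thapsigargin libraries were below all 9 others. Its fall was -0.69 with thapsigargin in knockdown cells (SE 0.05, edgeR adjusted p = 5.38e-15) and -0.16 in control cells (SE 0.05, edgeR adjusted p = 0.00194). With knockdown the change was -0.50 under thapsigargin (edgeR adjusted p = 3.43e-11) and 0.04 in DMSO, where it did not pass (edgeR adjusted p = 0.525).

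Psmd14 itself had 182, 197 and 195 CPM in knockdown thapsigargin and 204, 198 and 196 CPM in knockdown DMSO libraries, against 192, 189 and 177 CPM in control thapsigargin and 162, 168 and 162 CPM in control DMSO libraries. The control DMSO libraries were below the other 9. Thapsigargin raised Psmd14 in control cells (log2 change 0.18, SE 0.04, edgeR adjusted p = 0.000582) and knockdown raised it in DMSO (log2 change 0.28, SE 0.04, edgeR adjusted p = 3.27e-06). Under thapsigargin its change with knockdown, 0.04, did not pass (edgeR adjusted p = 0.412). It passed with gene read totals as the scaling (edgeR adjusted p = 0.00075).

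Psmd8 had 264, 275 and 271 CPM in knockdown thapsigargin and 246, 258 and 233 CPM in knockdown DMSO libraries. Control libraries had 235, 245 and 222 CPM with thapsigargin and 237, 253 and 236 CPM in DMSO, which overlapped. It was among the 3 genes higher with thapsigargin in knockdown cells (log2 change 0.14, SE 0.05, edgeR adjusted p = 0.00888). This call ended without knockdown DMSO replicate 3 (edgeR adjusted p = 0.0933). With knockdown under thapsigargin it rose by 0.21 (edgeR adjusted p = 0.000273). Psmd11, the lid gene least abundant per length, had 189, 187 and 186 CPM in knockdown thapsigargin and 202, 205 and 201 CPM in knockdown DMSO libraries, and 152, 163 and 156 CPM in control thapsigargin and 157, 158 and 154 CPM in control DMSO libraries. Both knockdown groups were above both control groups, by 0.38 in DMSO (SE 0.04, edgeR adjusted p = 2.82e-09) and 0.25 under thapsigargin (SE 0.04, edgeR adjusted p = 3.48e-06). The change with thapsigargin in knockdown cells was -0.12 (edgeR adjusted p = 0.0137). It did not pass with gene read totals as the scaling or in a fit of the 2 groups alone (edgeR adjusted p between 0.0502 and 0.936). Psmd13 had the steepest falls with thapsigargin among lid genes, -0.76 in knockdown and -0.79 in control cells, and shares 10.1% of its exon bases with Sirt3 on the other strand.

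Psmd5, Psmd9 and Psmd10 encode chaperones that help assemble the base and are not part of the finished particle. Psmd5 (ENSMUSG00000026869, chromosome 2, 34849734 to 34874968) had 126, 137 and 129.7 CPM in knockdown thapsigargin and 118, 124 and 115 CPM in knockdown DMSO libraries, against 87.8, 91.1 and 85.5 CPM in control thapsigargin and 92.2, 93.5 and 95.4 CPM in control DMSO libraries. All 6 knockdown libraries were above all 6 control libraries. Knockdown raised it under thapsigargin (log2 change 0.57, SE 0.05, edgeR adjusted p = 1.3e-12), the largest of the 26 rises, and in DMSO (log2 change 0.34, SE 0.05, edgeR adjusted p = 1.51e-07). With thapsigargin in knockdown cells it was higher by 0.14 (edgeR adjusted p = 0.00683). That rise was lost without knockdown DMSO replicate 3 or knockdown thapsigargin replicate 2 (edgeR adjusted p between 0.0533 and 0.0617). In control cells its change was -0.09 (edgeR adjusted p = 0.0863), which did not pass. It passed with gene read totals as the scaling (edgeR adjusted p = 0.0114).

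Psmd9 had 33.8, 38.4 and 36.7 CPM in knockdown thapsigargin and 40.0, 43.8 and 37.0 CPM in knockdown DMSO libraries, and 25.9, 25.1 and 25.0 CPM in control thapsigargin and 33.8, 33.2 and 30.9 CPM in control DMSO libraries. Knockdown raised it by 0.52 under thapsigargin (SE 0.07, edgeR adjusted p = 2.82e-08) and by 0.30 in DMSO (SE 0.06, edgeR adjusted p = 0.000182), without overlap. With thapsigargin the groups overlapped in knockdown cells (log2 change -0.15, SE 0.06, edgeR adjusted p = 0.0385), and Psmd9 fell in control cells (log2 change -0.37, SE 0.07, edgeR adjusted p = 7.46e-06). The knockdown-cell call did not pass with RLE scaling, with gene read totals as the scaling, in DESeq2, in a fit of the 2 groups alone or without knockdown DMSO replicate 1 or 2 or knockdown thapsigargin replicate 1 or 3 (edgeR or DESeq2 adjusted p between 0.0562 and 0.697). Psmd9 shares 25.5% of its exon bases with Gm26745, which held 0 reads. Psmd10, also called gankyrin, had 16.9, 18.3 and 18.4 CPM in knockdown thapsigargin and 27.3, 26.2 and 28.9 CPM in knockdown DMSO libraries, and 18.3, 16.8 and 15.2 CPM in control thapsigargin and 28.1, 28.2 and 25.1 CPM in control DMSO libraries. It fell with thapsigargin by 0.62 in knockdown and 0.70 in control cells (edgeR adjusted p = 4.31e-09 and 2.04e-10). Its changes with knockdown, 0.02 in DMSO and 0.10 under thapsigargin, did not pass (edgeR adjusted p = 0.865 and 0.291). The change under thapsigargin passed with gene read totals as the scaling (edgeR adjusted p = 0.0111).

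The 4 tested activators did not share 1 direction, with 1 higher and 3 lower with thapsigargin in knockdown cells, 2 higher and 2 lower with it in control cells, 2 and 2 with knockdown in DMSO, and 1 and 3 with knockdown under thapsigargin. Of all genes tested, thapsigargin raised 35.4% and lowered 34.4% in knockdown cells, and raised 37.7% and lowered 37.0% in control cells. Knockdown raised 25.0% and lowered 26.5% of all genes in DMSO, and raised 28.5% and lowered 28.4% under thapsigargin. Psme1 and Psme2 encode the interferon-inducible activator of the cytosol, and their genes are neighbours on chromosome 14. Psme1 (ENSMUSG00000022216, chromosome 14, 55578123 to 55581529) had 25.4, 26.2 and 26.6 CPM in knockdown thapsigargin and 48.4, 47.5 and 46.1 CPM in knockdown DMSO libraries, against 33.2, 34.3 and 30.1 CPM in control thapsigargin and 61.1, 64.8 and 57.6 CPM in control DMSO libraries. The 4 groups did not overlap. It was the only member lower in all 4 comparisons, at -0.86 and -0.91 with thapsigargin in knockdown and control cells (edgeR adjusted p = 2.27e-14 and 1.14e-15) and -0.37 and -0.32 with knockdown in DMSO and under thapsigargin (edgeR adjusted p = 1.58e-06 and 3.25e-05).

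Psme2 (ENSMUSG00000079197, chromosome 14, 55587441 to 55591113) had 47.4, 50.1 and 54.5 CPM in knockdown thapsigargin and 70.5, 72.0 and 74.5 CPM in knockdown DMSO libraries, against 46.4, 48.1 and 44.5 CPM in control thapsigargin and 80.6, 80.2 and 77.7 CPM in control DMSO libraries. Thapsigargin lowered it in knockdown cells (log2 change -0.51, SE 0.05, edgeR adjusted p = 2.59e-10) and in control cells (log2 change -0.78, SE 0.05, edgeR adjusted p = 6.36e-15). With knockdown its change was -0.14 in DMSO (edgeR adjusted p = 0.0275). That call did not pass without control DMSO replicate 1 or 2 or knockdown DMSO replicate 1 or 2 (edgeR adjusted p between 0.0556 and 0.11). Under thapsigargin the change with knockdown was 0.13 between groups that overlapped (edgeR adjusted p = 0.0441). That one was lost without the low-count filter, in DESeq2 or without control DMSO replicate 1 or 2, control thapsigargin replicate 1 or 3, knockdown DMSO replicate 1 or knockdown thapsigargin replicate 2 or 3 (edgeR or DESeq2 adjusted p between 0.0517 and 0.32).

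Psme3 (ENSMUSG00000078652, chromosome 11, 101316213 to 101323537), the nuclear activator, was the member that thapsigargin raised furthest. It had 253, 251 and 241 CPM in knockdown thapsigargin and 219, 224 and 227 CPM in knockdown DMSO libraries, against 293, 285 and 289 CPM in control thapsigargin and 201, 202 and 209 CPM in control DMSO libraries. The rise with thapsigargin was 0.15 in knockdown cells (SE 0.04, edgeR adjusted p = 0.00136) and 0.50 in control cells (SE 0.04, edgeR adjusted p = 6.85e-13). Knockdown raised it in DMSO by 0.13 (edgeR adjusted p = 0.00797) and lowered it under thapsigargin by 0.22 (edgeR adjusted p = 2.68e-05). The lowering was not past the threshold with gene read totals as the scaling (edgeR adjusted p = 0.066).

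Psme4, the large nuclear activator that binds the core without ATPases, had 120.2, 114 and 117 CPM in knockdown thapsigargin and 144, 138 and 141 CPM in knockdown DMSO libraries, against 149.5, 149 and 141 CPM in control thapsigargin and 132, 131 and 128 CPM in control DMSO libraries. Knockdown thapsigargin libraries were below all others. Thapsigargin lowered Psme4 in knockdown cells (log2 change -0.27, SE 0.04, edgeR adjusted p = 1.59e-06) and raised it in control cells (log2 change 0.17, SE 0.04, edgeR adjusted p = 0.000844). Knockdown lowered it under thapsigargin (log2 change -0.32, SE 0.04, edgeR adjusted p = 9.96e-08), and in DMSO its change was 0.11 (edgeR adjusted p = 0.0263). The DMSO call did not pass with gene read totals as the scaling, without the low-count filter or without control DMSO replicate 1 or 3 or knockdown DMSO replicate 1 or 3 (edgeR adjusted p between 0.0508 and 0.108). Summed over the 5 genes, activators held 442 ± 3.42 CPM in knockdown thapsigargin and 484 ± 4.71 CPM in knockdown DMSO libraries, and 514 ± 9.12 CPM in control thapsigargin and 475 ± 3.07 CPM in control DMSO libraries (mean ± SD, n = 3). Per exon length the order of the 2 knockdown groups turned, with 517 ± 9.33 TPM with thapsigargin and 504 ± 18.0 TPM in DMSO.

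Psmc3ip, the namesake that is not a subunit, had 10.1, 11.4 and 10.8 CPM in knockdown thapsigargin and 14.8, 17.2 and 17.3 CPM in knockdown DMSO libraries, against 9.16, 8.80 and 8.74 CPM in control thapsigargin and 17.2, 16.4 and 16.1 CPM in control DMSO libraries. Thapsigargin lowered it by 0.61 in knockdown and 0.90 in control cells (edgeR adjusted p = 6.06e-08 and 1.15e-11). Knockdown raised it under thapsigargin by 0.28 (edgeR adjusted p = 0.00602), and in DMSO the groups overlapped (-0.01, edgeR adjusted p = 0.963). It shares 21.2% of its exon bases with Mlx on the other strand.

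The difference between the thapsigargin effects, knockdown minus control, was tested directly. It passed for 20 of the 41 genes, 16 lower and 4 higher, against 17.7% lower and 17.6% higher over all genes (48.8% against 35.3% in either direction), with a member median of -0.11. This split depends on the scaling. With gene read totals in place of TMM, 8 were higher and 6 lower and the median was 0.05, while the median of all genes moved to 0.17, so the members stood 0.12 below all genes with either scaling. Of the 20 calls, 10 were kept with gene read totals. The largest were Psmd7 (log2 change -0.53, SE 0.06, edgeR adjusted p = 4.13e-08), Psme4 (log2 change -0.44, SE 0.06, edgeR adjusted p = 6.42e-07) and Psmc6 (log2 change -0.41, SE 0.07, edgeR adjusted p = 8.09e-06) on the lower side. On the higher side they were Psmb10 (log2 change 0.46, SE 0.13, edgeR adjusted p = 0.00535), Psme2 (log2 change 0.26, SE 0.07, edgeR adjusted p = 0.00562) and Psmd5 (log2 change 0.23, SE 0.06, edgeR adjusted p = 0.00562). By subcomplex, 5 of 6 ATPases, 2 of 7 alpha genes, 3 of 7 constitutive beta genes and 3 of 8 lid genes had a lower effect in knockdown cells. The Psma2 difference did not pass with gene read totals as the scaling, without the low-count filter or without control DMSO replicate 1 or 3, control thapsigargin replicate 1 or 2, knockdown DMSO replicate 1 or 2 or knockdown thapsigargin replicate 1 or 3 (edgeR adjusted p between 0.0599 and 0.74). That of Psmb4 did not pass with gene read totals as the scaling or without control DMSO replicate 3, control thapsigargin replicate 1 or 2, knockdown DMSO replicate 1 or 2 or knockdown thapsigargin replicate 1 or 3 (edgeR adjusted p between 0.0672 and 0.612). That of Psmb3 was lost with gene read totals as the scaling or without control DMSO replicate 3, control thapsigargin replicate 1 or 2 or knockdown DMSO replicate 2 (edgeR adjusted p between 0.0604 and 0.555). That of Psmb2 was lost with gene read totals as the scaling or without control DMSO replicate 3 (edgeR adjusted p between 0.0721 and 0.435). The higher effect of Psmd8 was lost without control DMSO replicate 2, control thapsigargin replicate 3, knockdown DMSO replicate 1 or 3 or knockdown thapsigargin replicate 2 (edgeR adjusted p between 0.0519 and 0.139).

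Genes that work with the proteasome were followed in 7 lists. Over all genes tested, 35.4% were higher and 34.4% lower with thapsigargin in knockdown cells, and 37.7% and 37.0% in control cells. With knockdown these shares were 25.0% and 26.5% in DMSO and 28.5% and 28.4% under thapsigargin. Of the NRF1 route (the transcription factor Nfe2l1, which induces proteasome genes, its relative Nfe2l2, processing enzymes and small Maf partners), 6 of 7 genes were higher with thapsigargin in knockdown cells and all 7 in control cells, and with knockdown 2 were higher and 5 lower in each treatment. The list's median log2 change was 0.81 and 0.68 with thapsigargin in knockdown and control cells and -0.22 and -0.47 with knockdown in DMSO and under thapsigargin, beside all-gene medians within 0.02 of 0. Nfe2l1 had 657, 612 and 617 CPM in knockdown thapsigargin and 349, 335 and 353 CPM in knockdown DMSO libraries, against 961, 976 and 1005 CPM in control thapsigargin and 378, 376 and 388 CPM in control DMSO libraries. Its RNA rose with thapsigargin in both populations, by 0.86 and 1.37, and fell with knockdown under thapsigargin by 0.64 (edgeR adjusted p = 7.35e-15). The fall with knockdown in DMSO was 0.14 (edgeR adjusted p = 0.00628). Mafk, a small Maf, rose with thapsigargin by 1.17 in knockdown and 1.76 in control cells. Unlike Nfe2l1, Mafk also rose with knockdown, by 1.05 in DMSO and 0.46 under thapsigargin (edgeR adjusted p = 1.28e-15 and 8.03e-09).

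Of 5 tested assembly factors, 2 were lower and 1 higher with thapsigargin in knockdown cells (median -0.14), and 1 was lower with it in control cells (median 0.03). Pomp, the chaperone that completes the beta rings, had 51.1, 61.6 and 58.0 CPM in knockdown thapsigargin and 121, 119 and 116 CPM in knockdown DMSO libraries, against 46.6, 49.8 and 40.1 CPM in control thapsigargin and 95.7, 101 and 94.0 CPM in control DMSO libraries. Like the core genes it fell with thapsigargin, by 1.06 and 1.09 in knockdown and control cells (edgeR adjusted p = 2.07e-14 and 9.22e-15), and rose with knockdown, by 0.29 and 0.32 in DMSO and under thapsigargin. Psmg3, an alpha-ring assembly chaperone, rose with thapsigargin in knockdown cells by 0.72 (edgeR adjusted p = 0.000109). With knockdown 1 of the 5 assembly factors was higher in DMSO, and 2 were higher and 1 lower under thapsigargin. The 2 subunits named outside the symbol rule were Sem1, a small lid subunit, at -0.43 and -0.42 with thapsigargin in knockdown and control cells, and Adrm1, a ubiquitin receptor of the base, at 0.33 and 0.25 with knockdown in DMSO and under thapsigargin, all called. The changes of Sem1 with knockdown in DMSO and under thapsigargin did not pass, though 5 and 2 of 18 alternatives gave a call (0.13 and 0.12, edgeR adjusted p = 0.0561 and 0.0907). With thapsigargin Adrm1 was higher, by 0.12 in knockdown cells (edgeR adjusted p = 0.0376) and 0.20 in control cells (edgeR adjusted p = 0.000592). The knockdown-cell rise of Adrm1 was lost without the low-count filter or without control DMSO replicate 1, control thapsigargin replicate 2, knockdown DMSO replicate 1 or 3 or knockdown thapsigargin replicate 2 or 3 (edgeR adjusted p between 0.0533 and 0.26).

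Among 5 ubiquitin and E1 genes, all were higher with knockdown in DMSO, and with thapsigargin 3 were lower in knockdown cells and 2 were higher in control cells. Under thapsigargin, knockdown gave 2 higher and 1 lower of these genes. Uba1, the main ubiquitin-activating (E1) enzyme, fell with thapsigargin by 0.30 in knockdown cells and rose with it by 0.10 in control cells. The Uba1 rise in control cells was lost with gene read totals as the scaling, without the low-count filter or without control DMSO replicate 1 or 3, control thapsigargin replicate 1 or 2 or knockdown DMSO replicate 1 (edgeR adjusted p between 0.0538 and 0.235). Uba6, another E1 enzyme, rose with knockdown in DMSO by 0.51. Of 10 genes for ubiquitin shuttles and the VCP segregase, 3 were higher and 2 lower with thapsigargin in knockdown cells, and 9 were higher and 1 lower in control cells. Vcp, the ATPase that extracts ER substrates, had log2 changes of -0.16 and 0.25 with thapsigargin in knockdown and control cells. The change of Vcp in knockdown cells was lost with gene read totals as the scaling (edgeR adjusted p = 0.338). Of 10 proteasome-bound factors and inhibitors, thapsigargin raised 6 and lowered 2 in knockdown cells and raised 7 and lowered 2 in control cells. List medians with thapsigargin in knockdown and control cells were -0.26 and 0.01 for ubiquitin genes, 0.08 and 0.31 for shuttles, and 0.21 and 0.27 for bound factors. Zfand2a, an arsenite-inducible proteasome-binding protein, rose with knockdown by 0.81 in DMSO and 0.84 under thapsigargin, and Akirin2, which carries proteasomes into the nucleus, rose with thapsigargin by 0.75 and 0.55 in knockdown and control cells. Zfand5, of the same list, fell with thapsigargin, at -0.78 and -0.30 in knockdown and control cells (edgeR adjusted p = 1.26e-15 and 8.61e-07). It also fell with knockdown, at -0.15 in DMSO and -0.63 under thapsigargin (edgeR adjusted p = 0.00706 and 4.65e-13). Of the 10 bound factors, knockdown raised 6 and lowered 2 in DMSO, and raised 4 and lowered 3 under thapsigargin. Of the 10 shuttle genes it raised 8 and lowered 1 in DMSO, and raised 2 and lowered 3 under thapsigargin.

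Of 10 antigen-processing genes, thapsigargin raised 6 and lowered 3 in knockdown cells and raised 4 and lowered 5 in control cells, with medians of 0.25 and -0.09. With knockdown 4 of them were higher and 3 lower in DMSO, and 1 was higher and 4 lower under thapsigargin. Tap1, the peptide transporter beside Psmb9, rose with knockdown by 0.62 in DMSO and 0.88 under thapsigargin (edgeR adjusted p = 0.000192 and 3.37e-07). Tapbp, which tethers the transporter, fell with thapsigargin by 1.34 and 1.44 in knockdown and control cells. Calr and Pdia3, ER chaperones that also serve peptide loading, rose with it by 0.93 and 0.61 in knockdown cells and by 1.63 and 1.47 in control cells.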

How the data were processed

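The deposited tables hold raw read counts per Ensembl gene for each of 12 libraries, with no normalization by the authors, and 5 entries that name no gene (13.32% to 14.61% of reads), which were left out. The submitters' processing notes name Trim Galore, STAR 2.5.3a, bedtools 2.31.0, DESeq2 and the builds mm10 and hg38; the counter, annotation and strand setting are not given in the sources used here. Of 53801 identifiers, 53706 matched GENCODE vM21, which gave symbols, positions and exon lengths. Groups came from the sample titles.

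Counts were fitted with edgeR 4.0.16 in R 4.3.3 (TMM, filterByExpr, robust quasi-likelihood, 4 group means, 8 residual degrees of freedom), leaving 15828 genes tested and 37973 not. The common biological coefficient of variation was 4.67%. P-values were Benjamini-Hochberg adjusted over all tested genes with a threshold of 0.05, and SEs are approximate, log2 change over the root of the F statistic. Alternatives were RLE scaling, gene read totals, no filter, DESeq2 1.42.0, a replicate block, a fit of only the 2 groups compared, and leaving out each library. The test was checked on simulated counts in which 100 genes each were changed by 0.5 and by 1 on the log2 scale. It recovered 84% and 95% of them for knockdown in DMSO, with 7 false calls. For the difference of the thapsigargin effects it recovered 79% and 90%, with 11 false calls. Changes under 0.5, which include most of those reported here, were not simulated.

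The members and lists were chosen with earlier results of these data known. Per-library values are given for immunoproteasome and activator genes that passed the filter, the 3 largest called changes in each direction and comparison among members that reach 5 CPM as the mean of a group, and the highest and lowest gene per length of each subcomplex. Genes outside the symbol rule are a subset of the 3 largest called changes per list, those with the largest, with Nfe2l1 and Cebpg. A gene of the ubiquitin list is not reported here. Replicate libraries differed by more than counting noise (chi-square per gene 2.51 to 9.83).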

Additional observations from a re-analysis of the deposited data

Results flagged for a closer look

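The thapsigargin effect differed between knockdown and control cells, by a direct test of the difference (knockdown minus control, edgeR adjusted p under 0.05), for 20 proteasome genes. A negative log2 difference means that the effect of thapsigargin was lower in knockdown cells. Core genes had -0.19 for Psma2, -0.27 for Psma5, -0.23 for Psmb2, -0.22 for Psmb3 and -0.21 for Psmb4. The base had -0.20 for Psmc1, -0.29 for Psmc2, -0.35 for Psmc3, -0.24 for Psmc5, -0.41 for Psmc6 and -0.33 for Psmd1. Among lid and chaperone genes the difference was -0.21 for Psmd12, -0.23 for Psmd14, 0.23 for Psmd5, -0.53 for Psmd7 and 0.19 for Psmd8. Psmb10 had 0.46, and activators had 0.26 for Psme2, -0.35 for Psme3 and -0.44 for Psme4.

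Outside the symbol rule the difference also passed for 10 of the named genes, with -0.70 for Calr, -0.59 for Mafk, -0.50 for Nfe2l1, -0.86 for Pdia3, -0.15 for Rad23b, -0.40 for Uba1, -0.22 for Uba6, -0.37 for Ubqln2, -0.41 for Vcp and -0.48 for Zfand5. With gene read totals as the scaling, 10 of the 20 member calls did not pass. Of the 17 alternatives, 10 ended the call of Psma2, 8 that of Psmb4, 5 each those of Psmb3 and Psmd8, and 2 that of Psmb2, most of them by leaving out 1 library. Outside the rule, 10 ended the call of Rad23b and 6 that of Uba6. No cause of these differences was tested.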

How the results depend on the processing

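Of 156 member calls over the 5 comparisons, 119 passed in the same direction under every alternative run and 37 were lost under at least 1. Of 49 member tests that did not pass, 21 passed under at least 1 alternative. Scaling by gene read totals alone had the widest effect, and the cause was not tested beyond the shift it gives all genes. With it the member median was -0.21 for thapsigargin in knockdown cells, 0.28 for knockdown under thapsigargin and 0.047, the opposite sign, for the difference of the thapsigargin effects, where 8 genes were higher and 6 lower. With the same scaling Psmd11 (0.0040) and Psmd4 (0.0028) with thapsigargin in knockdown cells, Psmb4 with knockdown under thapsigargin (0.12) and Rad23b in the difference (0.0071) changed sign. Summed activators turned from a CPM ratio under to a TPM ratio over 1 with thapsigargin in knockdown cells (1.03), and the other way with knockdown in DMSO (0.938). With thapsigargin, the sum of all 45 members had ratios of 0.796 (CPM) and 0.9 (TPM) in knockdown cells. In control cells the ratios were 0.894 and 0.906, so the larger fall of this sum in knockdown cells held in CPM only. The alpha ring had TPM ratios of 0.804 in knockdown and 0.781 in control cells, and the ATPases 0.906 and 0.967. For the beta ring they were 0.89 and 0.897, and for the other base genes 0.915 and 0.905. The lid had TPM ratios of 0.977 in knockdown and 0.98 in control cells, beside CPM ratios of 0.861 and 0.944. Most of its CPM fall in knockdown cells was thus not seen in TPM.

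Leaving out 1 library at a time, the member median ran from -0.37 to -0.30 with thapsigargin in knockdown cells, with 1 to 3 genes higher and 31 to 36 lower, and from -0.27 to -0.20 in control cells, with 5 to 7 higher and 24 to 26 lower. With knockdown it ran from 0.25 to 0.31 in DMSO, with 31 to 33 higher and 1 to 3 lower, and from 0.12 to 0.18 under thapsigargin, with 19 to 27 higher and 5 to 6 lower. For the difference it ran from -0.15 to -0.07, with 3 to 6 higher and 12 to 19 lower.

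Replicate numbers did not pair the libraries: over 18 same-number pairs the correlation of deviations from group means ran from -0.0302 to 0.0767, and 0 exceeded 0.1. With the replicate number as a block, 3 genes were higher and 36 lower with thapsigargin in knockdown cells, 6 and 26 in control cells, 33 and 2 with knockdown in DMSO, 27 and 6 under thapsigargin, and 5 and 16 for the difference, and the block ended no member call. Psma8, Psmb8, Psmb9, Psmb11 and Psme2b had at most 39 reads in any group, and the cause of these low counts was not tested.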
